A study of Mus musculus with 20 samples.

Results

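The comparison described here set dermal lymphatic endothelial cells (LECs) taken at ZT7 against LECs taken at ZT13, which are 10 of the 20 libraries of the series. Zeitgeber time (ZT) counts hours from lights on, so that ZT7 lies in the middle of the light phase, when mice rest, and ZT13 lies just after lights off, when they become active. The members were chosen by the time point label of each library alone, with 5 libraries at ZT7 and 5 at ZT13. All came from ear skin of wild-type C57BL/6 mice at postnatal day 56, and the study's methods give them as male C57BL/6N. Ears were digested with collagenase IV and DNase I, and live CD31+podoplanin+ cells were sorted. The digestion described in the study's methods also held dispase II. The labels number the replicates without naming the mice behind them, so that p-values measure the spread between these pools, which may in part be technical. Each library was a pool of ears from more than 1 mouse, the number of cells was small, and full-length cDNA was amplified before sequencing without molecular identifiers. The labels name no transgene and no treatment. The methods name light cabinets that shift the light cycle, so that several times of day can be sampled at once, and whether they were used for these libraries was not stated.

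LECs line the lymphatic vessels that drain fluid and migrating dendritic cells from the skin, and they are recognised by the transcription factor Prox1, the hyaluronan receptor Lyve1 and the membrane protein podoplanin (Pdpn). In mammalian cells the clock activators Clock and Bmal1 (Arntl in the files) drive the genes of their own repressors, the Per and Cry proteins, and of output factors such as Dbp. Time of day also reaches tissues from outside the cell, through feeding, body temperature and glucocorticoid hormone, which rises before the active phase. The comparison addresses how the RNA of these cells differs between rest and the start of activity.

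Between ZT7 and ZT13, 18 of 19209 genes tested differed (0.0937%; Benjamini-Hochberg adjusted p of 0.05 or less in edgeR's quasi-likelihood test, fitted to the 20 libraries together). Of these, 3 were higher at ZT13 (0.0156% of the genes tested), namely Fkbp5, Fos and Zfp36, which belong to hormone and immediate early responses. The other 15 were lower at ZT13 (0.0781%), and the 5 of them that belong to the keratinocyte or epidermal barrier lists were Sfn, Krt15, Krt5, Col17a1 and Dsg1a. The number of called genes moved with the setting, from 0 to 88 over 22 alternatives. DESeq2 called 88 genes, and all 18 were among them. There were 2 calls without ZT7 replicate 2, 11 without ZT7 replicate 3, 4 without ZT13 replicate 5 and 3 without ZT13 replicate 4, all among the 18. Without ZT13 replicate 2 there were 3 calls, 2 of them among the 18, and without ZT13 replicate 3 there were 36, with 17 of the 18 among them. With the summed levels of the keratinocyte and fibroblast lists as covariates, edgeR's test called 0 genes, and 167 reached an unadjusted p of 0.05. The keratinocyte list holds 4 of the 15 lower genes, so that this fit removes part of their difference by construction. The keratinocyte level also does not overlap between ZT7 and ZT13. In this fit the covariate effect was estimated over all 20 libraries, and whether it holds between ZT7 and ZT13 was not tested. The direction of all 18 genes was the same in every alternative but this one, in which 7 of them turned. In that fit the 8 other lower genes had log2 differences of -1.74 (Capns2), -1.65 (Tmem45a), -0.91 (Krt15), -0.62 (Igfbp3), -0.33 (Dsg1a and Col17a1), -0.25 (Sfn) and -0.012 (Tuba4a).

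**Figure D1:**
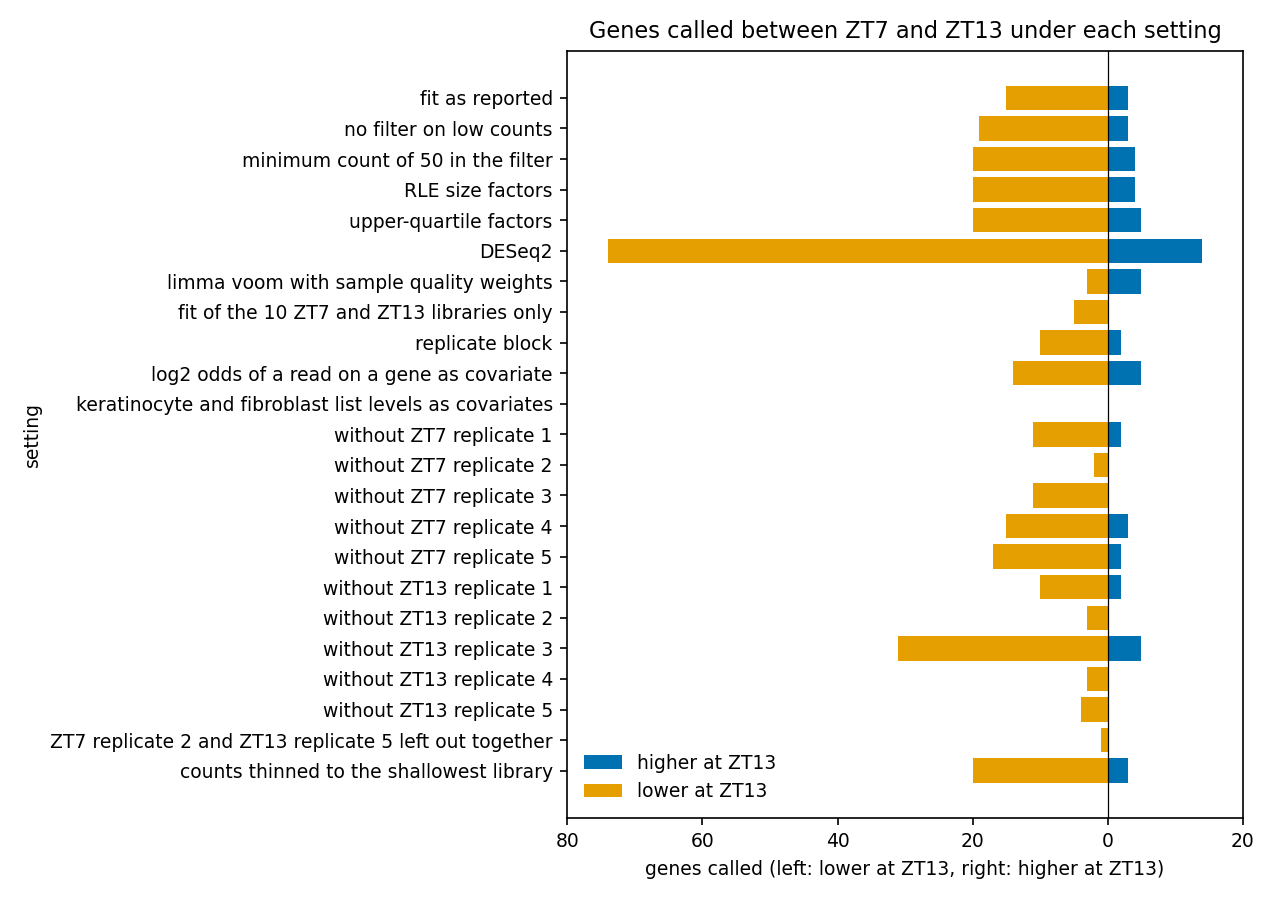
Number of genes called between ZT7 and ZT13 (adjusted p of 0.05 or less) in the fit as reported and under each of the 22 alternatives, with genes lower at ZT13 drawn to the left and genes higher at ZT13 to the right. DESeq2 gave the largest number (74 lower and 14 higher) and the fit with keratinocyte and fibroblast levels gave 0.

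Depth and the share of reads on genes differed among the libraries within each time point. The reads assigned to genes numbered 4475111 to 16936960 at ZT7 (median 6139585) and 4736532 to 42002363 at ZT13 (median 10083683). Among uniquely mapped, unambiguous reads, 12.7% to 62.3% were on genes at ZT7 (median 17.5%) and 20.1% to 79.9% at ZT13 (median 22.9%), and the highest shares belonged to ZT7 replicate 2 and ZT13 replicate 5. Without these 2 libraries 1 gene was called. The median log2 difference of all genes tested was -0.07, against which the differences given here can be read. Values of genes are normalized counts, that is, counts divided by the effective library size and brought to the scale of an average library.

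The labelled cell type was found in every library. Lyve1 was at 14598 ± 8934 normalized counts at ZT7 and 14350 ± 5206 at ZT13 (SD, n = 5 each), Prox1 at 2240 ± 621 and 2962 ± 891, and Pdpn at 1598 ± 1133 and 1743 ± 1226. None of the 8 tested genes of the lymphatic list reached an unadjusted p of 0.05, beside 1.16% of all genes higher and 1.43% lower, which would give few or none among 8, and their median log2 difference was 0.22. The ninth, the chemokine gene Ccl21a, was listed at 0 in all 10 libraries, as were its near-identical copies Ccl21b and Ccl21c, and reads that aligned to more than one place (29.9% of all reads in these libraries) were not counted on any gene.

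Keratinocyte RNA was also present, and it was present at a higher level at ZT7. The summed level of the 14 keratinocyte markers was 144670, 185754, 90169, 66859 and 66841 normalized counts in ZT7 replicates 1 to 5, and 25022, 11509, 32888, 26195 and 12385 in ZT13 replicates 1 to 5. The time points did not overlap. These markers took 0.804% to 1.92% of the counts on genes at ZT7 and 0.0916% to 0.350% at ZT13. Per kilobase of exon, the level of Krt14 was 18611 ± 9284 at ZT7 and 4123 ± 2058 at ZT13, beside 5001 ± 3061 and 4916 ± 1784 for Lyve1 (SD, n = 5 each). In pooled sorted cells, fewer cells of a type and less RNA per cell cannot be told apart. The CD31+podoplanin+ gate asks for CD31, which keratinocytes lack. The study's methods give a lower limit for the purity of the sort, not full purity. How this RNA came to be in the sorted pools was not tested, for the markers or for the 15 genes called lower at ZT13. The fibroblast markers summed to 963 to 4583 at ZT7 and to 736 to 9745 at ZT13, the blood endothelial markers to 5064 to 9422 and to 6797 to 15396, and the leukocyte markers to 209 to 569 and to 269 to 460, all with overlap.

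**Figure D2:**
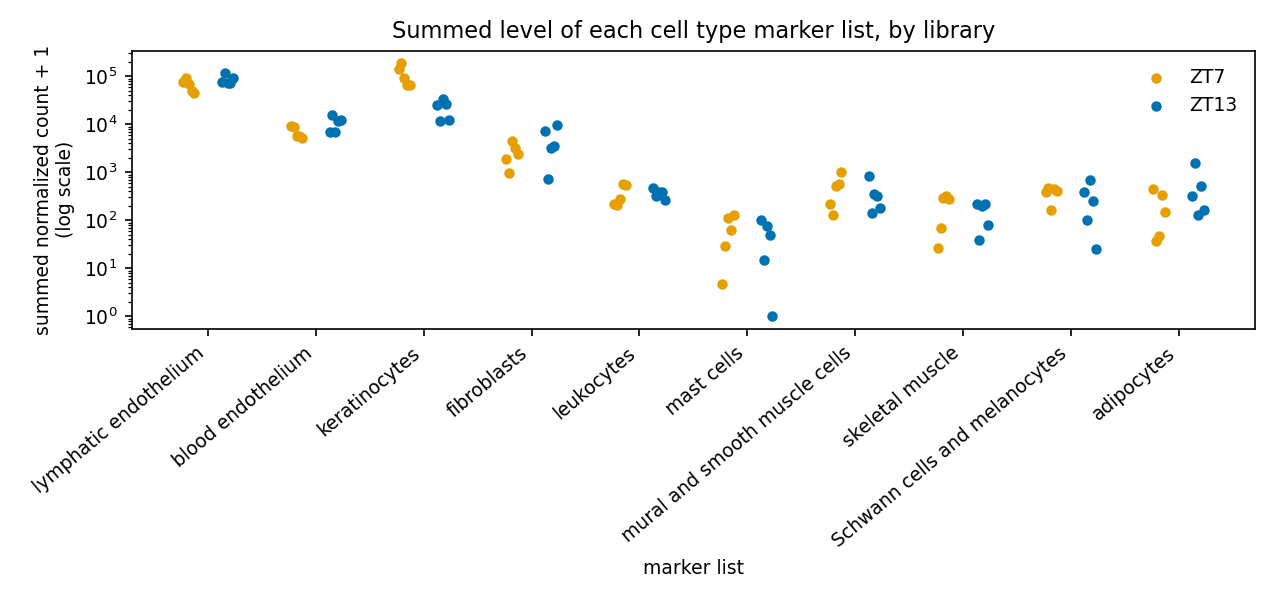
Summed normalized counts (plus 1, log axis) of each of 10 cell type marker lists, with 1 point per library (5 at ZT7 in orange, 5 at ZT13 in blue). The keratinocyte sums lie between 66841 and 185754 at ZT7 and between 11509 and 32888 at ZT13, and the sums of the other 9 lists overlap between the time points.

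The 3 genes that were higher at ZT13 are described first. Fkbp5 encodes a co-chaperone that lowers the hormone affinity of the glucocorticoid receptor and is itself induced by that receptor. It was at 466, 442, 410, 567 and 390 normalized counts in ZT7 replicates 1 to 5 and at 1249, 1401, 1101, 1725 and 2296 in ZT13 replicates 1 to 5. Every ZT13 library was above every ZT7 library. The difference was 1.77 on the log2 scale (SE 0.32), a 3.42-fold higher level at ZT13 (edgeR adjusted p = 0.0202). Fkbp5 was at 407 ± 71.1 at ZT1 and 758 ± 329 at ZT19 (SD, n = 5 each), so that ZT13 had the highest mean of the 4 time points.

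Fos encodes a subunit of the AP-1 transcription factor and is an immediate early gene, one that responds to a stimulus within minutes. Its normalized counts were 3439, 2928, 2137, 3436 and 4162 in ZT7 replicates 1 to 5 and 9328, 14585, 9156, 14370 and 15529 in ZT13 replicates 1 to 5. The log2 difference was 1.97 (SE 0.36), or 3.91-fold (adjusted p = 0.0202), and the 5 ZT13 libraries were also above the 10 libraries of ZT1 (mean 5074 ± 2100) and ZT19 (6394 ± 1625). Zfp36 encodes tristetraprolin, which binds AU-rich elements and promotes the decay of cytokine mRNAs. It was at 900, 968, 853, 1407 and 1082 in ZT7 replicates 1 to 5 and at 2726, 3328, 2249, 3339 and 4245 in ZT13 replicates 1 to 5. Its log2 difference was 1.61 (SE 0.32), or 3.05-fold (adjusted p = 0.0296), again without overlap. Over the genes tested, 49 (0.255%) had all 5 ZT13 libraries above all 5 ZT7 libraries.

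**Figure D3:**
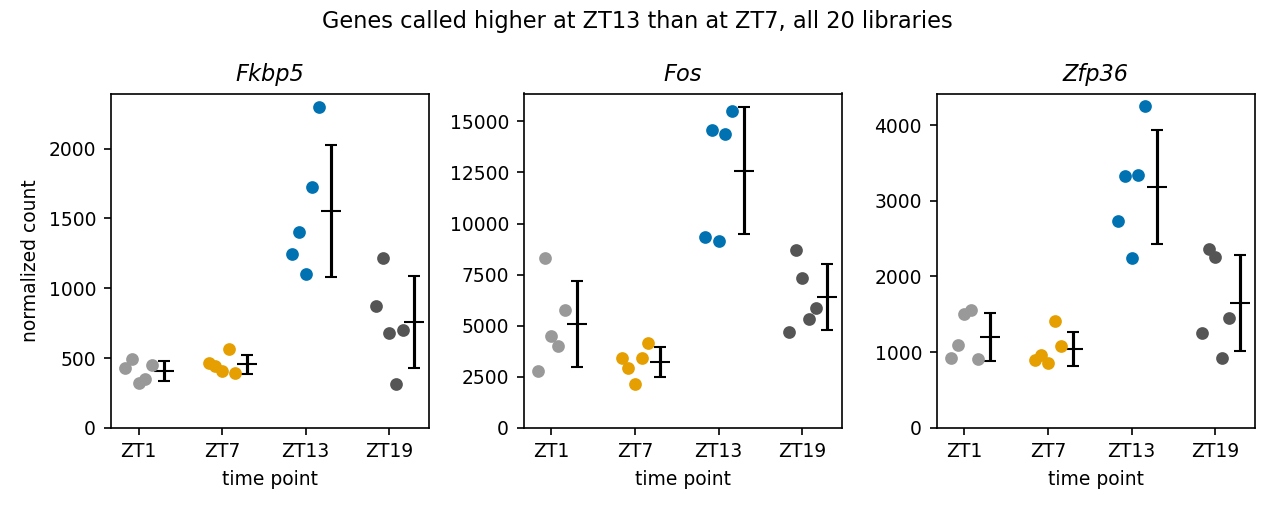
Normalized counts of Fkbp5, Fos and Zfp36 in all 20 libraries by time point, with 1 point per library and the mean with its SD (n = 5) as a bar beside the points. In each panel the 5 ZT13 libraries lie above the 5 ZT7 libraries, and for Fos they lie above the other 15.

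The calls of these 3 genes depended on which libraries were in the fit, while their sizes moved little when 1 library was left out. In the fit of the 10 ZT7 and ZT13 libraries only, 0 genes were called higher at ZT13. Over the fits that left out 1 library each, the log2 difference of Fkbp5 stayed between 1.59 and 1.92 and that of Fos between 1.85 and 2.10, and both were called in 5 of the 10 fits. Zfp36 stayed between 1.48 and 1.75 and was called in 2 of the 10. With the keratinocyte and fibroblast levels as covariates, the differences were 1.02 for Fkbp5, 1.37 for Fos and 0.96 for Zfp36, none called, beside a median over all genes of 0.29 in that fit.

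The sequence before the transcription start is shown for these 3 genes because they are the ones called higher at ZT13. The 250 bases come from RefSeq on GRCm38.p6, the build that mm10 denotes, for the start site given there, 5′ to 3′ on the gene's strand. Capitals mark an E-box (CACGTG, the element bound by Clock and Bmal1), a CRE core (TGACGT, the element bound by CREB) and a TATA box (TATAAA). The Fkbp5 stretch is chr17:28486150-28486399 on the minus strand, the Fos stretch chr12:85473640-85473889 on the plus strand, and the Zfp36 stretch chr7:28379229-28379478 on the minus strand.
Fkbp5: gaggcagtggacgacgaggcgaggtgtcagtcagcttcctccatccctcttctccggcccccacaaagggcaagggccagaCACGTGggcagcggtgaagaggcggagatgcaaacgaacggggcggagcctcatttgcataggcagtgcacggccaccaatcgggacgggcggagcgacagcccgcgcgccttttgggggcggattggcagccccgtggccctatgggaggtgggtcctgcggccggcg
Fos: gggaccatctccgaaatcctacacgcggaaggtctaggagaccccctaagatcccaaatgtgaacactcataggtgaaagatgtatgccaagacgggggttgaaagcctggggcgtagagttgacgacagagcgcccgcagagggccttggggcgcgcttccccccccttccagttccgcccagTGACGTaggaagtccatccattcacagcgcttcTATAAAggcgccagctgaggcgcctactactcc
Zfp36: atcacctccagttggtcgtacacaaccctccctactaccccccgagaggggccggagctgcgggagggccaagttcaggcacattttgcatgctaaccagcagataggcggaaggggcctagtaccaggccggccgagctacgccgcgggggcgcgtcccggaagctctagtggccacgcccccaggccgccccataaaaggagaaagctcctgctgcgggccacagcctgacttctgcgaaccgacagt

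Fkbp5 held an E-box that begins 169 bases before its start, Fos a CRE core 66 bases and a TATA box 33 bases before its start, and Zfp36 none of the motifs searched. The E-box, CRE core, AP-1 site and D-box were searched on both strands and the TATA box on the strand of the gene, and no 2 matches overlapped. Among 14157 promoters of the same length, 7.54% held the E-box, 8.65% the CRE core and 5.62% the TATA box. Of the 18 called genes 14 had a promoter in the table, 3 higher and 11 lower at ZT13, and of the 11 none held the E-box or the CRE core and 2 held a TATA box. The AP-1 site TGACTCA (3.77% of all promoters) and the D-box TTATGTAA (0.671%) were in none of the 14. A match of letters describes the sequence and does not show binding.

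The list of glucocorticoid-responsive genes held Fkbp5, which was called (0.0156% of all genes tested were called higher), and 21 others, which were not. Of its 22 genes, all tested, 17 had a positive log2 difference and 5 a negative one, 11 reached an unadjusted p of 0.05 with a higher level at ZT13 (1.16% of all genes tested), and 0 reached it with a lower level (1.43% of all genes). The median log2 difference of the list was 0.75, with values from -1.33 to 1.77. With the keratinocyte and fibroblast levels as covariates, 0 of its members reached an unadjusted p of 0.05 with a higher level at ZT13. In that fit Fkbp5 was at 1.02 on the log2 scale, beside a median over all genes of 0.29. The 5 with a negative difference were the metallothionein genes Mt1 (-0.68) and Mt2 (-1.06), Pdk4, a kinase that restrains pyruvate oxidation (-1.33), Angptl4, an inhibitor of lipoprotein lipase (-0.40), and Anxa1, which encodes annexin A1 (-0.48), and each of them overlapped between the time points. These 5 were chosen for mention after their values were seen. Zbtb16, a transcriptional repressor induced by glucocorticoids, was at 703, 532, 374, 313 and 334 normalized counts in ZT7 replicates 1 to 5 and at 1448, 1726, 942, 1207 and 1442 in ZT13 replicates 1 to 5. The groups did not overlap, and the log2 difference of 1.58 (SE 0.38) was not called (adjusted p = 0.124). Slc10a6, a transporter of sulfated steroids, was at 952 ± 285 and 2126 ± 684 (SD, n = 5 each; log2 difference 1.16, adjusted p = 0.419). Cebpd, a C/EBP transcription factor of the acute response, was at 1351 ± 371 and 2748 ± 1121 (log2 difference 1.02, adjusted p = 0.501). The gene of the glucocorticoid receptor itself, Nr3c1, chosen for mention after its values were seen, was at 3910 ± 660 and 3936 ± 864. The count of 11 fell to 7 without ZT7 replicate 3 and to 7 without ZT13 replicate 5.

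The list of AP-1 and immediate early genes had 20 of 21 members tested. Fos and Zfp36 were called (0.0156% of all genes tested were called higher), 11 reached an unadjusted p of 0.05 with a higher level at ZT13 (1.16% of all genes), 0 reached it with a lower level (1.43%), and the median log2 difference was 0.85. Fosb, another AP-1 subunit, was at 650, 106, 487, 483 and 732 in ZT7 replicates 1 to 5 and at 2271, 1903, 1619, 1977 and 622 in ZT13 replicates 1 to 5. The groups overlapped through ZT13 replicate 5, and the log2 difference of 1.77 (SE 0.40) had an adjusted p of 0.0893. Btg2, an antiproliferative early response gene, did not overlap between the time points, at 2156 ± 613 and 6633 ± 3823 (log2 difference 1.62, SE 0.38, adjusted p = 0.112). Klf2, the flow-responsive Krüppel-like factor of endothelium, was at 2694 ± 1001 and 6120 ± 3246 (log2 difference 1.18, adjusted p = 0.815). With the keratinocyte and fibroblast levels as covariates, 0 of these members reached an unadjusted p of 0.05 with a higher level either, while Fos was at 1.37 and Zfp36 at 0.96 on the log2 scale. The 2 lists share no gene. Both were chosen with earlier results of these data known, and their counts include Fkbp5, Fos and Zfp36. The keratinocyte level does not overlap between the time points, and its part in these differences was not tested.

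Other genes with a higher level at ZT13 missed the threshold. Fmo2, a flavin monooxygenase, was at 907, 1638, 1240, 882 and 925 in ZT7 replicates 1 to 5 and at 2571, 4118, 1878, 2745 and 3544 in ZT13 replicates 1 to 5, with no overlap (log2 difference 1.41, SE 0.30, adjusted p = 0.0629). Socs3, a feedback inhibitor of cytokine signalling, was at 224 ± 60.9 and 733 ± 492, also with no overlap (log2 difference 1.71, adjusted p = 0.795). Enpp2, which encodes autotaxin, the enzyme that makes lysophosphatidic acid, was at 394 ± 126 and 810 ± 255 with no overlap (log2 difference 1.04, adjusted p = 0.9999). Gata2, a transcription factor of lymphatic valves, was at 1147 ± 262 and 1865 ± 423 (log2 difference 0.70). Nfkb1, a subunit of NF-kB, had a log2 difference of 0.76. Gpx3, a secreted glutathione peroxidase, was at 542, 1114, 537, 645 and 598 in ZT7 replicates 1 to 5 and at 1011, 3096, 1069, 845 and 7835 in ZT13 replicates 1 to 5. Its log2 difference of 2.01 (SE 0.53, adjusted p = 0.237) fell to 1.13 without ZT13 replicate 5. Ccdc80, a matrix protein of the fibroblast list, had a log2 difference of 1.73 (adjusted p = 0.415), and Plvap, the diaphragm protein of fenestrated blood endothelium, one of 1.17. Fabp4, a lipid carrier of fat and capillary cells, had one of 1.95, which was 0.76 without ZT13 replicate 2 and 3.41 without ZT7 replicate 1.

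The 15 genes that were lower at ZT13 include structural genes of the epidermis. Dsg1a, a desmosomal cadherin, was at 516, 1885, 950, 264 and 907 normalized counts in ZT7 replicates 1 to 5 and at 37.7, 2.12, 81.3, 25.6 and 10.4 in ZT13 replicates 1 to 5. All ZT7 libraries were above all ZT13 libraries, and the log2 difference was -4.91 (SE 0.72, adjusted p = 0.00259). Dsg1a has closely related neighbours, Dsg1b and Dsg1c, with which its reads may be shared, and its value is uncertain to that extent. Krt15, a keratin of basal and hair follicle cells, was at 25960, 23562, 17630, 10899 and 15318 at ZT7 and at 3444, 3087, 4473, 4388 and 2875 at ZT13, replicates 1 to 5 in order. Its log2 difference was -2.35 (SE 0.41, adjusted p = 0.0202), a 5.11-fold lower level. Krt5, the type II keratin of basal cells, was at 18219, 27698, 18292, 10008 and 13217 at ZT7 and at 5640, 1456, 4681, 3444 and 1261 at ZT13 (log2 difference -2.41, SE 0.46, adjusted p = 0.0296). Col17a1, the hemidesmosomal collagen that ties basal cells to the basement membrane, had a log2 difference of -2.38, and Sfn, the 14-3-3 protein of stratified epithelium, one of -2.60 (adjusted p = 0.0155).

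The other 10 were not in the keratinocyte or epidermal barrier lists. These lists do not hold every gene of keratinocytes, so that absence from them does not place a gene in another cell type. Which cells made the RNA of the 10 was not tested. Capns2, a small subunit of calpain proteases, was at 2981, 1266, 808, 435 and 579 at ZT7 and at 51.3, 34.99, 27.8, 25.6 and 26.3 at ZT13 in replicates 1 to 5, with a log2 difference of -5.20 (SE 0.75, adjusted p = 0.00259). Capns2 lies within the span of Lpcat2 on the same strand, and Lpcat2 was at 289 ± 211 at ZT7 and 363 ± 391 at ZT13 (SD, n = 5 each; edgeR unadjusted p = 0.548). Reads of the 2 genes that overlap cannot be told apart by strand. Calm5, a calmodulin-like gene, was at 859, 728, 343, 310 and 223 at ZT7 and at 1.51, 0, 25.8, 10.7 and 0 at ZT13, and its fitted difference of -6.26 rests on few reads at ZT13. In the 2 ZT13 libraries at 0, a gene with 3 counts would make up 2.53e-05% (replicate 2) and 7.14e-06% (replicate 5) of the counts, which covers counting error only. Serpinb5, the epithelial serpin maspin, was at 1842 ± 1178 and 287 ± 149 (log2 difference -2.69), Aqp3, a water and glycerol channel, at 1768 ± 1459 and 192 ± 195 (-3.22), and Klf5, an epithelial Krüppel-like factor, at 1050 ± 437 and 154 ± 105 (-2.78). The difference of Aqp3 was -2.57 without ZT7 replicate 2 and -3.98 without ZT13 replicate 3, that of Calm5 -7.58 without ZT13 replicate 3, that of Dsg1a -5.67 without ZT13 replicate 3 and that of Capns2 -4.55 without ZT7 replicate 1. With the keratinocyte and fibroblast levels as covariates, the differences turned to 0.42 for Serpinb5, 0.80 for Calm5, 1.60 for Aqp3, 0.95 for Klf5 and 0.15 for Krt5.

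Tmem45a, a transmembrane protein gene, was at 1093, 1386, 1037, 974 and 1102 at ZT7 and at 294, 368, 222, 320 and 388 at ZT13 in replicates 1 to 5. Its log2 difference was -1.81 (SE 0.33, adjusted p = 0.0202), and it was -1.65 with the keratinocyte and fibroblast levels as covariates, without a call. Igfbp3, a binding protein of insulin-like growth factors, was at 734 ± 397 and 120 ± 79.6 (log2 difference -2.61). Ckmt1, a mitochondrial creatine kinase, was at 1168 ± 544 and 148 ± 113 (-2.99), and Tuba4a, an alpha tubulin, at 1326 ± 796 and 231 ± 117 (-2.52). Ckmt1 overlaps Strc and Tuba4a overlaps Stk16 on the other strand, neither of which reached an unadjusted p of 0.05. Ly6d, a surface protein of the Ly6 family, was at 12263 ± 8356 and 1948 ± 1010 (-2.66). With those covariates Ckmt1 turned to 0.083 and Ly6d to 0.076.

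**Figure D4:**
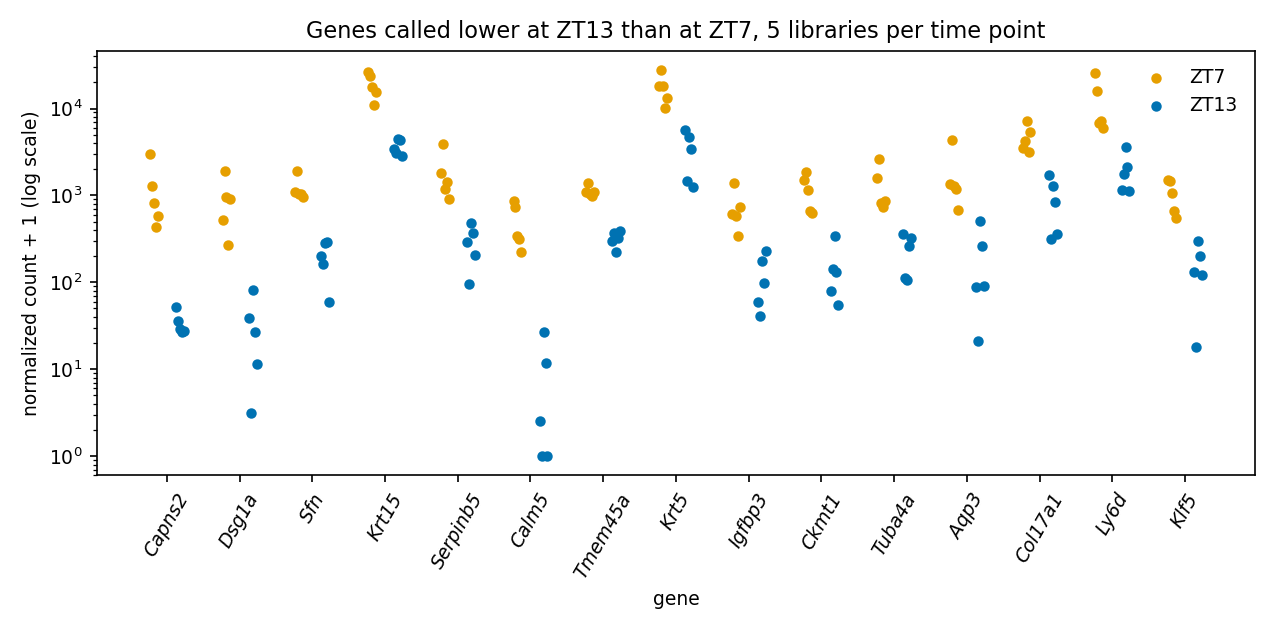
Normalized counts (plus 1, log axis) of the 15 genes called lower at ZT13, with 1 point per library (5 at ZT7 in orange, 5 at ZT13 in blue). The 2 time points do not overlap for any of the 15, and the lowest values are those of Calm5 at ZT13, with 2 libraries at 0.

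In all 15 genes every ZT13 library was below every ZT7 library, as in 144 of all genes tested (0.750%). In all 15 the ZT13 mean was the lowest of the 4 time points, and in 14 the ZT19 mean was the highest, Dsg1a being the exception with ZT7. In 7 of the 15 each ZT13 library was below all 15 others. Krt15 was at 6666 ± 1944 at ZT1 and at 41400 ± 17312 at ZT19, and Capns2 at 330 ± 402 and 1252 ± 805 (SD, n = 5 each). Capns2 and Dsg1a were called in all 10 fits that left out 1 library, Sfn in 8, Krt15, Serpinb5 and Igfbp3 in 6 each, and the other 9 in 3 to 5.

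The same direction was seen across the keratinocyte list. This list was chosen with earlier results of these data known and includes called genes, so that its counts are no separate support. All 14 members were lower at ZT13, 4 were called (0.0781% of all genes were called lower), 12 reached an unadjusted p of 0.05 (1.43% of all genes), 8 did not overlap between the time points (0.750% of all genes), and the median log2 difference was -2.18. Krt14, the partner of Krt5, was at 42064, 56683, 25238, 22479 and 17130 at ZT7 and at 7342, 2936, 11272, 10308 and 4387 at ZT13 in replicates 1 to 5 (log2 difference -2.17, SE 0.48, adjusted p = 0.0716). Perp, a desmosomal membrane protein, was at 10828 ± 7251 and 2629 ± 1061 (log2 difference -2.04, adjusted p = 0.0629). Krt10, the keratin of suprabasal cells, was at 3945, 35138, 2930, 4328 and 1901 at ZT7 and overlapped with ZT13, where ZT13 replicate 3 was at 2350 (log2 difference -3.90, adjusted p = 0.267). The difference of Krt10 was -2.34 without ZT7 replicate 2 and -5.54 without ZT13 replicate 3, where it was called (edgeR adjusted p = 0.0235). The count of 12 stayed at 10 or more when any 1 library was left out.

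In the epidermal barrier list, 18 of 20 members were tested. Dsg1a was called (0.0781% of all genes were called lower), 4 reached an unadjusted p of 0.05 with a lower level at ZT13 (1.43% of all genes), and the median log2 difference was -1.19. Dmkn, a secreted protein of differentiating keratinocytes, was at 2337 ± 2166 and 172 ± 223 (log2 difference -3.79, adjusted p = 0.0629). Its difference was -3.19 without ZT7 replicate 1 and -5.01 without ZT13 replicate 3, where it was called (edgeR adjusted p = 0.00398). Tgm3, a transglutaminase of the cornified envelope, was at 288 ± 188 and 48.5 ± 41.7 (log2 difference -2.58, adjusted p = 0.9999). Lists of desmosome genes and of all keratins were drawn up after values had been seen, and in them 8 of 13 and 6 of 49 tested genes reached an unadjusted p of 0.05 with a lower level at ZT13, beside 1.43% of all genes. Outside these lists, Lamb3, a laminin chain of the epidermal basement membrane, had a log2 difference of -2.08 (adjusted p = 0.243), and Lad1, an anchoring filament protein, one of -1.82 (adjusted p = 0.0777).

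The remaining genes next to the threshold were also lower at ZT13. Sostdc1, a secreted inhibitor of BMP and Wnt signalling, was at 1094 ± 628 and 247 ± 118 (log2 difference -2.15, adjusted p = 0.0606). Clip4, a protein with CAP-Gly domains, was at 359 ± 139 and 65.5 ± 38.0 (-2.46, adjusted p = 0.0606), and Pof1b, an actin-binding junction protein, at 503 ± 238 and 102 ± 55.04 (-2.31, adjusted p = 0.0629). Urah, a hydrolase of urate breakdown, was at 747 ± 568 and 110 ± 61.1 (-2.77, adjusted p = 0.0629), and Fcgbp, a mucin-like secreted protein, at 2590 ± 1876 and 173 ± 153 (-3.92, adjusted p = 0.0716).

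**Figure D5:**
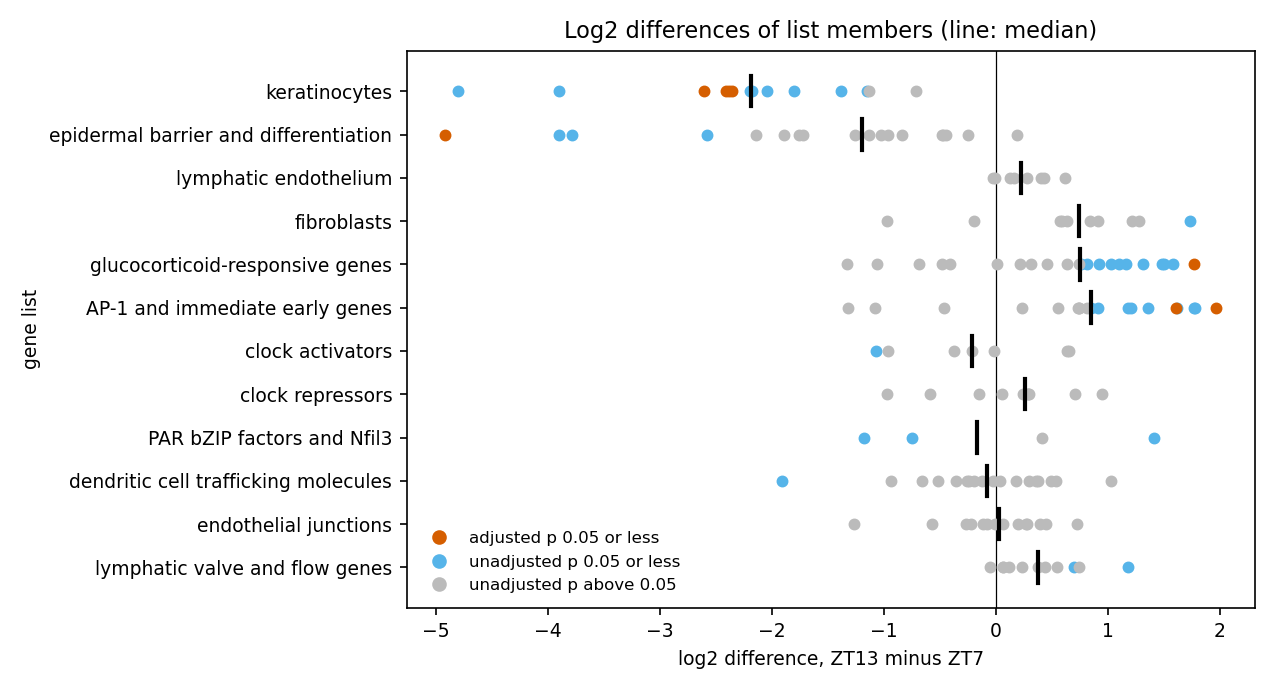
Log2 difference (ZT13 minus ZT7) of each tested member of 12 gene lists, with the list's median as a black line and colours for the p of each gene. The keratinocyte members all lie below 0 with a median of -2.18, and the glucocorticoid-responsive and AP-1 lists have medians of 0.75 and 0.85.

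None of the clock genes was called between these time points. Of the clock output factors of the PAR bZIP family, Dbp was at 787, 898, 891, 738 and 516 at ZT7 and at 411, 385, 440, 482 and 565 at ZT13 in replicates 1 to 5. The values overlapped only through ZT7 replicate 5 and ZT13 replicate 5 (log2 difference -0.75, SE 0.31, unadjusted p = 0.0240, adjusted p = 0.9999). Hlf did not overlap, at 679 ± 153 and 300.0 ± 119 (log2 difference -1.18, SE 0.43, unadjusted p = 0.00996). Tef was at 2230 ± 580 and 2978 ± 692, and Nfil3, a repressor that binds the same D-box elements, was at 203 ± 76.4 and 542 ± 328 (log2 difference 1.41, SE 0.43, unadjusted p = 0.00298, adjusted p = 0.559).

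Among the clock repressors, 0 of 10 reached an unadjusted p of 0.05, beside 1.16% of all genes higher and 1.43% lower, shares at which a list of this size would hold few or none. Per2 was at 98.3, 255, 258, 245 and 391 at ZT7 and at 482, 344, 557, 453 and 564 at ZT13 in replicates 1 to 5, with the groups overlapping through ZT7 replicate 5 and ZT13 replicate 2 (log2 difference 0.94, SE 0.51, unadjusted p = 0.0753). Per1 differed by 0.29, Per3 by 0.28, Cry1 by 0.71 and Cry2 by 0.24 on the log2 scale. Nr1d1, which encodes the nuclear receptor REV-ERB alpha, was at 1851 ± 438 and 1228 ± 580 (log2 difference -0.59), and its paralogue Nr1d2 differed by 0.06. Bhlhe40 differed by 0.29, Bhlhe41 by -0.97 and Ciart by -0.15.

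Of the 7 clock activators, Rora, a nuclear receptor that activates Bmal1, was at 970 ± 431 and 465 ± 240 (log2 difference -1.06, SE 0.41, unadjusted p = 0.0145). Arntl was at 146, 405, 182, 159 and 196 at ZT7 and at 116, 12.7, 194, 59.7 and 177 at ZT13 in replicates 1 to 5, with overlap (log2 difference -0.96, SE 0.52, unadjusted p = 0.0749). Clock differed by -0.01 and Npas2 by -0.37, or by -1.09 without ZT13 replicate 3. The directions of Per1, Per3, Nr1d2, Ciart, Bhlhe40, Arntl, Clock, Npas2 and Rora turned under at least 1 alternative.

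The molecules that guide dendritic cells into lymphatic vessels showed no called difference. Of the 18 tested members of that list, 1 reached an unadjusted p of 0.05, Ackr4, a scavenging receptor for the chemokine CCL21, which was at 768, 996, 400, 293 and 217 at ZT7 and at 84.5, 187, 155, 168 and 121 at ZT13 in replicates 1 to 5. The groups did not overlap (log2 difference -1.90, SE 0.51, adjusted p = 0.259). Ackr4 was at 206 ± 155 at ZT1 and 687 ± 257 at ZT19 (SD, n = 5 each). Its mean was lowest at ZT13 and highest at ZT19, as for Krt5 and Krt15, and which cells made its RNA was not tested. Lyve1 differed by -0.02 (SE 0.43), F11r, the gene of JAM-A, by 0.04 (SE 0.37), Jam3, the gene of JAM-C, by 0.38 (SE 0.76) and Pecam1, the gene of CD31, by 0.44 (SE 0.30). The directions of Lyve1, F11r and Pdpn turned under some alternatives. With standard errors of this size, differences of about these magnitudes could not be resolved. The list of lymphatic valve and flow genes had 11 members tested and that of NF-kB feedback and cytokines 17. In each, 2 members reached an unadjusted p of 0.05 with a higher level at ZT13, beside 1.16% of all genes. The heat shock, cell cycle, endothelial junction, interferon and antigen presentation lists held 0 such members in either direction, beside 1.16% of all genes higher and 1.43% lower, shares at which lists of this size would hold few or none.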

How the data were processed

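RNA of sorted dermal LECs was sequenced in 20 libraries, of which 5 at ZT7 and 5 at ZT13 are compared. Per the labels, STAR (mapping to mm10) and HTSeq-count (HTSeq 1.0.0 in the submitters' notes) were used by the authors, who deposited 1 file of raw counts per gene symbol for each library. Strand use in counting was not given in the sources used here. Rows that name no gene (reads on no gene, ambiguous, not aligned or aligned to several places) held 86.7% of the reads of the 10 libraries and stayed out of library sizes.

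The test was edgeR 4.0.16 under R 4.3.3 (TMM, filterByExpr by time point with a minimum count of 10, quasi-likelihood F-test) with every one of the 20 libraries in 1 fit of the 4 time points, and p-values were adjusted by Benjamini-Hochberg over all genes tested. Standard errors are the log2 difference divided by the square root of F. The alternatives were DESeq2 1.42.0, limma 3.58.1 (voom), other filters and normalizations, covariates, the replicate block and each library left out. Counting floors use 3 counts.

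The members, the gene lists and the rule for named genes were chosen with earlier results of these data known. The rule names every called gene, the 10 next by p, up to 4 members of each list and 26 fixed genes, 150 tested genes in all. Of these, 80 list members with an unadjusted p above 0.05 are given by list counts only, a limit set after the values were seen. The glucocorticoid-responsive genes with a negative difference, Nr3c1, and overlapping or related neighbours of called genes were named outside the rule. Promoters came from RefSeq (GRCm38.p6) and gene spans from GENCODE M21.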

Additional observations from a re-analysis of the deposited data

Results flagged for a closer look

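Among 140 groups of 5 libraries (70 genes at 2 time points, log2 normalized counts), 12 held a library whose gap to its neighbour, relative to the range of the group, was above 0.71. Chance gives about 1 in 20, here 7. Over all 150 genes of the naming rule it was 26 of 300 groups, where chance gives 15. ZT7 replicate 2 stood apart in 7 groups. It was the highest for Sfn (0.801), Pof1b (0.724), Arntl (0.715), Gpx3 (0.750) and Krt10 (0.718), and the lowest for Bhlhe41 (0.770) and Fosb (0.784). ZT13 replicate 5 was the lowest for Fosb (0.739) and Npas2 (0.745), and ZT13 replicate 2 the highest for Pdpn (0.812). ZT7 replicate 3 was the highest for Nfkb1 (0.800) and ZT7 replicate 1 the highest for Fabp4 (0.773). ZT7 replicate 2 and ZT13 replicate 5 were also the libraries with the highest share of reads on genes in their groups.

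Reads on no gene, which enter no comparison, had a median share of 78.5% over the 10 libraries, counted among uniquely mapped and unambiguous reads. What these reads are was not tested.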

How the results depend on the processing

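The number of calls (18, of which 3 higher and 15 lower at ZT13) moved to 88 (14 and 74) with DESeq2, 8 (5 and 3) with limma voom and quality weights, 5 (0 and 5) in the fit of the 10 libraries only, 1 (0 and 1) without ZT7 replicate 2 and ZT13 replicate 5 together, and 0 (0 and 0) with the keratinocyte and fibroblast levels as covariates. The higher calls alone moved to 5 with upper-quartile factors and 5 when the log2 odds of gene reads entered as a covariate. Leaving out 1 library gave 2 to 36 calls, 0 to 5 of them higher and 2 to 31 lower. The fit of the 10 libraries tested fewer genes on fewer samples. For the other changes the cause was not tested. The counts thinned to the shallowest library, an alternative chosen after the depths were seen, gave 23 calls. The pair of libraries left out together was also chosen after the data were seen.

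With the replicate block there were 12 calls (2 higher and 10 lower), 11 of them among the 18. Same-numbered libraries of ZT7 and ZT13 correlated in their deviations by -0.51, 0.34, 0.19, 0.33 and -0.54, so that the numbers were not taken to pair the samples. Under the block, F11r was at -0.041 and Clock at 0.045.

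Among single genes, directions turned in 57 of 1540 gene and setting combinations. With the keratinocyte and fibroblast covariates the log2 differences were 0.42 for Serpinb5, 0.80 for Calm5, 0.15 for Krt5, 0.083 for Ckmt1, 1.60 for Aqp3, 0.076 for Ly6d, 0.95 for Klf5, 1.54 for Dmkn, 0.40 for Perp, 0.21 for Fcgbp, 0.60 for Krt14, 0.060 for Lad1, -0.54 for Fabp4, 1.14 for Rora, 0.67 for Arntl, 2.37 for Krt10, 0.97 for Tgm3, 0.29 for Lyve1, -0.52 for F11r, -1.04 for Pdpn, 1.20 for Npas2, -0.046 for Per1, -0.084 for Per3 and -0.13 for Nr1d2. Without ZT7 replicate 2 and ZT13 replicate 5 together, Lyve1 was at 0.45, F11r at -0.27, Clock at 0.16 and Ciart at 0.085. With limma voom, Lyve1 was at 0.16 and F11r at -0.31, and with the odds covariate F11r was at -0.31 and Clock at 0.095. Leaving out 1 library, Lyve1 ranged from -0.23 to 0.41, F11r from -0.41 to 0.25, Pdpn from -0.42 to 0.64, Clock from -0.18 to 0.20, Per1 from -0.062 to 0.52, Nr1d2 from -0.067 to 0.23, Ciart from -0.37 to 0.33 and Bhlhe40 from -0.021 to 0.79. Pools of few cells with a spread between replicates as wide as here (common biological coefficient of variation 1.0004) limit what these libraries resolve.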
